A study of Homo sapiens with 4 samples.

Results

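Added bicarbonate at high cell density was examined in H9, a human embryonic stem cell line in wide use. H9 cells that had grown for 2 days above 90% confluence with 20 mM additional sodium bicarbonate (high-density bicarbonate, HD bicarb) were set against H9 cells of the same density and day without the addition (high-density control, HD ctrl). A gene entered the comparison when its representative probe had a detection p-value under 0.01 on both high-density arrays, and 9188 genes met this rule, of 10457 genes detected on at least 1 of the 4 arrays of the series. Negative-control probes on the array set the detection p-value, which falls as fewer of them outshine the probe, and the representative probe of a gene is the one with the highest mean normalized intensity over the 4 arrays. No fold size was used to choose the genes.

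All 4 groups of the series were H9 cells in E8, a defined serum-free medium, on Matrigel-coated plates, collected on day 2. The other groups were low-density cells, below 70% confluence, with 20 mM added bicarbonate (LD bicarb) and without it (LD ctrl). Every group was 1 RNA sample on 1 Illumina expression array, from 1 cell line, so precision is limited by the number of arrays, and differences below have neither a replicate check nor a test. The only spread at hand is the disagreement between different probes of a gene. Such probes share their RNA and their arrays, so this spread leaves out variation between cultures. The title of the series asks whether holding down medium acidosis helps pluripotent cells that are kept dense. Fewer cells of a kind and less RNA per cell cannot be told apart in such bulk samples.

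The label of pluripotent stem cells was checked against markers. All 10 pluripotency markers examined, POU5F1, NANOG, SOX2, LIN28A, SALL4, L1TD1, DNMT3B, ZFP42, PODXL and CRIPTO, were detected on both high-density arrays. Their summed linear level was 49651 with bicarbonate and 43946 in control. DNMT3B (0.62) and ZFP42 (0.53) had the largest log2 differences, while LIN28A (-0.20) and SALL4 (-0.22) stood lower. No direction is taken from this sum. None of 6 primitive streak and mesoderm markers, 5 endoderm markers or 5 trophoblast and amnion markers was detected on either array. Of 5 neuroectoderm markers OLFM1 was detected on both arrays, and of 6 markers of blood and endothelium KDR was. Of 8 fibroblast markers, COL1A1, COL1A2, THY1 and PDGFRB were detected, and COL3A1, LUM, DCN and POSTN were not. The summed level of all 8 was 7652 with bicarbonate and 8592 in control. THY1, with log2 levels of 12.52 and 12.84, was by far the brightest and dominates that sum. Which cells carried THY1 was not tested, so the sum is no measure of fibroblasts. THY1 (-0.32) and PDGFRB (-0.52) stood lower with bicarbonate, while COL1A1 (0.99) and COL1A2 (0.58) stood higher. The bicarbonate array was the dimmer of the pair before normalization, with a median intensity of 117.4 against 162.7 in control, but it had more probes detected, 15213 against 14710.

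Cells that ferment glucose export lactate together with protons, so dense cultures acidify their medium, and bicarbonate takes up protons as carbon dioxide forms. Human pluripotent stem cells in culture rely strongly on glycolysis. The regulators that follow are given as background to the gene lists, and their activity was not measured. The MondoA and MLX transcription factors respond to glucose phosphates inside the cell and drive TXNIP, p53 responds to DNA damage and other stress and drives the cell cycle inhibitor CDKN1A, and hypoxia-inducible factors drive glycolytic enzymes. MTF1 drives metallothioneins when free zinc rises, SRF with its actin-regulated cofactors drives contractile genes, and SMAD proteins downstream of bone morphogenetic proteins (BMP) drive the ID genes.

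The highest gene with bicarbonate was ID1, a target of BMP signalling, and the lowest was TXNIP, an arrestin-like protein that limits glucose uptake. Beside TXNIP the lowest genes were the cell cycle inhibitor CDKN1A, the stress cytokine GDF15, 2 muscle actins, ACTG2 and ACTA1, the small nucleolar RNA SNORD3D and 2 metallothioneins, MT1E and MT1H. Beside ID1 the highest were NPTX1, a neuronal pentraxin, ZNF239, the BMP target ID2 and PFKFB4, a glycolytic regulator. Among 9188 genes, 48 (0.522%) were at least 2-fold higher with bicarbonate and 55 (0.599%) were at least 2-fold lower. At 1.5-fold the counts were 413 higher (4.49%) and 411 lower (4.47%), or 824 in all (8.97%). Each count of list members below is to be read beside these shares. Differences of 3-fold or more were few, with 3 genes higher and 6 lower, and ID1, CDKN1A and TXNIP were the only genes past 5-fold.

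Most genes stood close to 0. The median log2 difference was 0.02, the middle 50% of genes lay between -0.20 and 0.22, and 91.0% of genes were less than 1.5-fold apart. The standard deviation over genes was 0.351 at high density and 0.272 between the low-density arrays, where, of 8973 measured genes, 8 (0.0892%) passed 2-fold upward with bicarbonate and 9 (0.100%) downward. The spread at high density depended on brightness, with a standard deviation of 0.421 in the second-dimmest 10% of genes and 0.241 in the brightest 10%. Among those brightest genes 3, PHLDA1, BNIP3 and ADM, were at least 2-fold higher and 0 were lower. The split between higher and lower calls rests on the quantile normalization. With the arrays only set to equal medians, the median of all genes moved by -0.157, and 25 genes passed 2-fold upward and 85 downward, so that 22.7% of 2-fold calls were higher in place of 46.6%. At 1.5-fold 21.9% of calls were higher in place of 50.1%. All 52 list medians were lower with equal medians, by 0.02 to 0.32, and 19 of them changed sign, so medians near 0 give no direction.

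**Figure D1:**
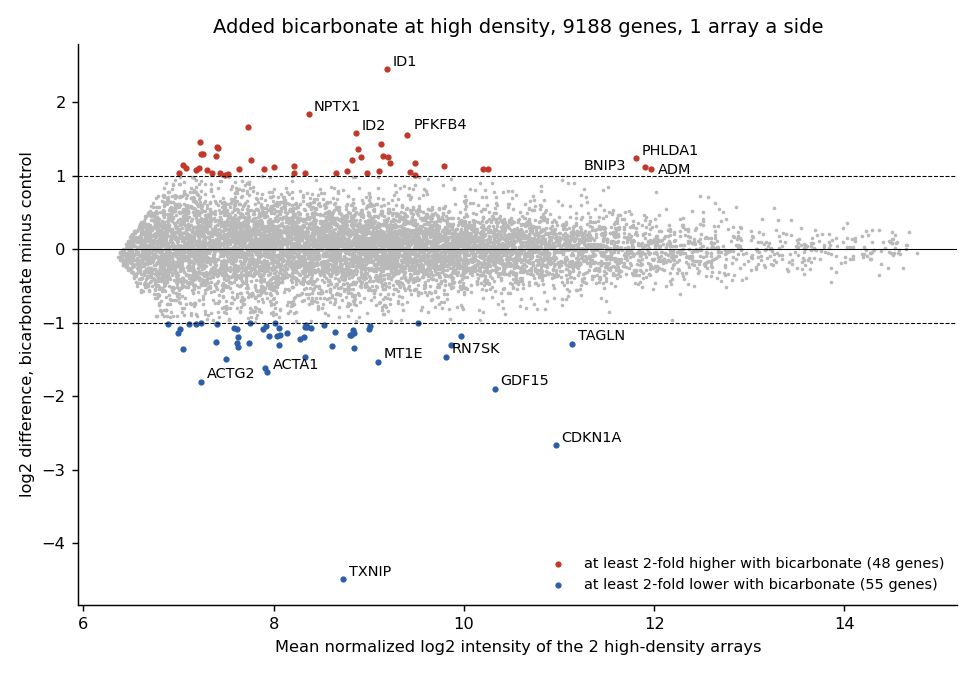
Log2 difference of high-density bicarbonate minus high-density control (vertical axis) against the mean normalized log2 intensity of both arrays (horizontal axis) for 9188 genes, each point 1 gene, with dashed lines at 2-fold. Red points are the 48 genes at least 2-fold higher with bicarbonate and blue points the 55 at least 2-fold lower. TXNIP lies at -4.49, CDKN1A at -2.67 and ID1 at 2.44, and 3 bright genes, PHLDA1, BNIP3 and ADM, lie above 1.

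TXNIP gave the largest difference of any gene. Its normalized log2 intensity was 6.48 with bicarbonate and 10.98 in control at high density, a log2 difference of -4.49 or 22.5-fold, and it was 7.97 and 7.52 on the low-density bicarbonate and control arrays. Before normalization the probe read 162 with bicarbonate, against 2339 in the high-density control. The high-density control thus stood far above the other 3 arrays, while the level with bicarbonate lay just above 6.31, the lowest normalized level of any detected probe on that array. TXNIP has 1 detected probe, so the size has no second reading.

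The TXNIP promoter is shown because this gene carries the largest difference and is the best known target of MondoA. Sequences here and below are RefSeq promoters on GRCh38.p14, 5′ to 3′ on the gene's strand, from windows of 250 bases before to 50 after the annotated start. A carbohydrate response element holds paired cores of the form CACGNG, searched on both strands, and capitals mark the 4 matches in chr1:145996614-145996757, on the minus strand.
TXNIP: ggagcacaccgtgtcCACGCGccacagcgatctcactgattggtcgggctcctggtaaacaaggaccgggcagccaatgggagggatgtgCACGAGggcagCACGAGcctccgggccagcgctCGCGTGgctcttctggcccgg
Of the 8 measured genes of the arrestin-domain and MondoA-linked list with a promoter in the table, 7 (87.5%) held CACGNG, against 42.8% of the 7550 measured genes with a promoter and 30.4% of all 27305 promoters of this length. A match of letters is a description of the sequence and not a bound site. The lists searched here and below were put together around a regulator or its known targets. A high share of its sequence was thus likely beforehand and is no result of these arrays.

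The rest of that list did not follow TXNIP. Of 15 listed genes 9 were measured, with a median of -0.20 against 0.02 over all genes. TXNIP was the only member at least 1.5-fold lower, and MLXIPL, the glucose-responsive relative of MondoA, was the only member at least 1.5-fold higher, at 7.57 with bicarbonate and 6.76 in control. The arrestin ARRDC2 stood at -0.20, thioredoxin TXN, the partner of TXNIP, at 0.00, and MLX at 0.52. MXD4, another MLX partner, stood at -0.57.

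Glucose uptake and glycolysis enzymes stood higher as a group. Of 22 measured members of 23, 19 were above 0. At least 1.5-fold higher were 5 and lower 0, against 4.49% and 4.47% of all genes. The median was 0.36, or 0.16 with equal medians. At low density the median of the list was -0.11. PFKFB4, which makes the activator of phosphofructokinase, had a level of 10.18 with bicarbonate and 8.62 in control, a difference of 1.56. The neuronal enolase ENO2 had 11.24 and 10.38, with a difference of 0.86. The other 3 past 1.5-fold were triosephosphate isomerase TPI1 (0.72), aldolase ALDOA (0.71) and glucose phosphate isomerase GPI (0.60). The second probes of TPI1 and ALDOA stood at 0.43 and 0.62. Just short of the threshold were pyruvate kinase PKM (0.57), the glucose transporter SLC2A1 (0.55), PGAM1 (0.54) and hexokinase HK2 (0.52, with 0.15 on its second probe), while HK1, the hexokinase of most tissues, stood at -0.27.

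Hypoxia-linked genes outside glycolysis behaved alike. Of 23 measured members of 36, 7 were at least 1.5-fold higher and 0 lower, against 4.49% and 4.47% of all genes. The median was 0.37, or 0.24 on the mean of all detected probes, against -0.04 at low density. BNIP3, which marks mitochondria for removal, had a level of 12.46 with bicarbonate and 11.35 in control, a difference of 1.12. ADM, the vasodilator peptide adrenomedullin, had 12.51 and 11.42, a difference of 1.09. BNIP3 was 9.94 and 9.92 on the low-density arrays, so both high-density arrays lay above them, with the bicarbonate array highest. DDIT4, an inhibitor of mTORC1, stood at 0.84, the collagen prolyl hydroxylase P4HA2 at 0.82, the secreted hormone STC2 at 0.79, the histone demethylase KDM4B at 0.77 and the oxygen sensor EGLN1 at 0.62. P4HA2 has a second probe, which stood at 0.76. VEGFA, an angiogenic factor, stood at 0.55, but at -0.04 on its second probe, and ANGPTL4, a lipase inhibitor, was lowest at -0.52, but stood at 0.04 on its second probe. STC1, a paralog of STC2 that was in no list, was among the 15 highest genes at 1.25.

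The promoters of BNIP3 and ALDOA are shown for the hypoxia and glycolysis groups because both genes were among the higher members. Capitals mark the hypoxia response core ACGTG, found in BNIP3 on both strands of the palindrome CACGTG in chr10:131982037-131982072 (minus strand) and in ALDOA on the opposite strand in chr16:30064086-30064120 (plus strand).
BNIP3: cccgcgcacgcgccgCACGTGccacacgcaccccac
ALDOA: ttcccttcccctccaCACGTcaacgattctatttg
ACGTG was found in 9 of 21 glycolysis promoters (42.9%) and 12 of 18 promoters of the other hypoxia-linked genes (66.7%), against 27.7% of promoters of measured genes and 21.6% of all promoters. Among the other members at least 1.5-fold higher, ENO2, GPI, DDIT4, KDM4B and EGLN1 held it. PFKFB4, TPI1, ADM, P4HA2 and STC2 did not. Members at least 1.5-fold higher were thus found with and without the core. ANGPTL4, the lowest hypoxia-linked member on its brightest probe, also held it. The palindrome CACGTG holds this core and the CACGNG core searched above, so those searches overlap.

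Downstream of glycolysis, differences were smaller. Among 9 measured genes of pyruvate and lactate handling, 0 passed 1.5-fold upward and 1 downward, the malic enzyme ME1 (-0.60), and the median was -0.02. PDK3, a kinase that turns off pyruvate dehydrogenase, stood at 0.43. The TCA cycle had 0 of 17 measured genes past 1.5-fold either way and a median of 0.04. Nuclear subunits of respiratory complex I likewise had 0 of 28 past 1.5-fold, and 20 of them stood below 0, with a median of -0.14, or -0.44 with equal medians, and NDUFA1 lowest at -0.49. For pentose phosphate and glycogen genes 0 of 14 were past 1.5-fold and the median was 0.10, with the lactonase PGLS highest at 0.56.

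**Figure D2:**
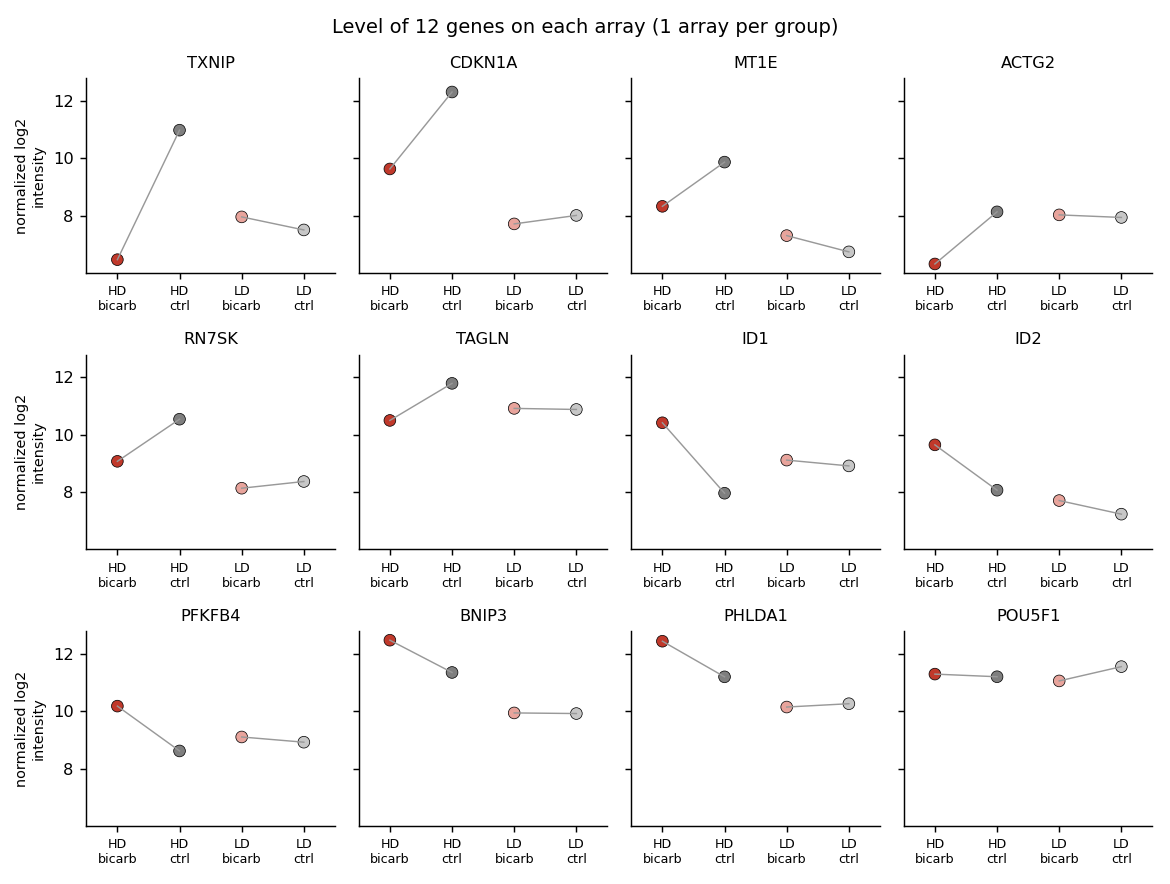
Normalized log2 intensity (vertical axis, the same in each panel) of 12 genes on the arrays of high-density bicarbonate, high-density control, low-density bicarbonate and low-density control, 1 array per group, with a line joining the pair of each density. In the first 6 panels the high-density bicarbonate array lies below its control, as for TXNIP (6.48 and 10.98), and in the next 5 it lies above, as for ID1 (10.42 and 7.97), while POU5F1 differs by 0.09.

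Genes that move bicarbonate and protons were mostly dim or undetected. Of 41 genes for bicarbonate transport, proton exchange and carbonic anhydrases, 15 were measured, with a median of 0.01. CA4, a carbonic anhydrase of the cell surface, had a level of 7.63 with bicarbonate and 6.53 in control, a difference of 1.10, and the proton channel HVCN1 had 7.22 and 6.48, a difference of 0.74. Both lay close to background. HVCN1 had the lower intensity with bicarbonate before normalization, 211.2 against 221.8 in control. SLC4A7, a sodium bicarbonate cotransporter, was the only member at least 1.5-fold lower, with 10.52 and 11.23 on its brightest probe (-0.70) and -0.18 on its second. The anion exchanger SLC4A2 stood at 0.39 and the carbonic anhydrase CA2 at -0.15.

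Targets of p53 stood lower with bicarbonate. Of 23 measured targets of 30, 10 were at least 1.5-fold lower and 0 higher, against 4.47% and 4.49% of all genes. The median was -0.56, against 0.03 at low density. CDKN1A, which encodes the cyclin-dependent kinase inhibitor p21, had a level of 9.63 with bicarbonate and 12.30 in control, a difference of -2.67 or 6.36-fold, and 7.72 and 8.02 on the low-density bicarbonate and control arrays. Its level with bicarbonate at high density lay between the high-density control and both low-density arrays. GDF15 had 9.37 and 11.27, a difference of -1.90, and was not detected on either low-density array. GADD45A, a DNA damage response protein, had 7.96 and 9.27, and its pair of probes gave -1.31 and -1.14.

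The other p53 targets past 1.5-fold were PHLDA3, an inhibitor of AKT (-1.14), the stress sensor SESN1 (-0.87), TRIAP1 (-0.81), the p53 ubiquitin ligase MDM2 (-0.76), the ribonucleotide reductase subunit RRM2B (-0.68), TP53INP1 (-0.66) and cyclin G1 CCNG1 (-0.61). Second probes of RRM2B, TP53INP1 and CCNG1 stood at -0.64, -1.58 and -0.54. The repair genes DDB2 and XPC stood above 0, at 0.18 and 0.28. Probes disagreed in BAX, a pore-forming member of the BCL2 family (0.16, and -0.60 on its second probe), and in ZMAT3 (0.48 and -0.34). In the BCL2 family 0 of 13 measured genes were past 1.5-fold, and the p53-driven killers BBC3 and PMAIP1 stood at -0.56 and -0.53.

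Cell cycle genes apart from CDKN1A differed little. Of 18 measured G1 cyclins, CDKs and CDK inhibitors, CDKN1A and the transcription factor E2F2 (-0.75) were the 2 at least 1.5-fold lower, with 0 higher and a median of -0.08. In S phase and replication 0 of 40 were past 1.5-fold, with a median of 0.03. In G2 and mitosis 2 of 43 were lower, with a median of -0.07, namely BIRC5, the survivin of the chromosomal passenger complex, at -0.95 with -0.85 on its second probe, and the checkpoint kinase BUB1B at -0.58. Of 14 measured histone genes 1, H2BC12, was lower (-0.82).

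Metallothioneins, small proteins that bind zinc and copper, stood lower with bicarbonate. MT1E had a level of 8.33 with bicarbonate and 9.87 in control, a difference of -1.53, MT1H had 6.75 and 8.25 (-1.50), and MT1G had 9.38 and 10.57 (-1.19). MT2A (-0.83) and MT1F (-0.76) were also at least 1.5-fold lower, and MT1X stood at -0.32. At low density MT1E, MT1G and MT1F stood at 0.56, 0.75 and 0.85, and MT1H and MT2A were not measured on that pair. Within metallothioneins and genes of zinc or copper handling, 7 of 18 measured members were at least 1.5-fold lower and 1 higher. The shares of all genes were 4.47% and 4.49%. The list median was -0.29. The zinc transporter SLC30A5 stood at -1.34, but at -0.22 on its second probe. SLC30A1, the zinc exporter of the cell surface, was the 1 higher member, at 0.87, with close intensities of 224.8 and 223.6 before normalization. Metallothionein genes share much sequence, and reads of neighbouring family members by a probe cannot be told apart here.

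The promoters of MT1H and MT2A are shown because metal response elements repeat in them. Capitals mark the core TGCNCNC on either strand, 8 matches in chr16:56669576-56669827 for MT1H and 8 in chr16:56608334-56608633 for MT2A, both on the plus strand.
MT1H: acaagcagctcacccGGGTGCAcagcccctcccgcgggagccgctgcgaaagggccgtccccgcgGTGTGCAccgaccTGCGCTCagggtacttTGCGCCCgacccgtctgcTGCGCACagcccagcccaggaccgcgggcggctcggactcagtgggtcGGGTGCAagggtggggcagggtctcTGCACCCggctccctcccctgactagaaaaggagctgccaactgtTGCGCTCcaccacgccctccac
MT2A: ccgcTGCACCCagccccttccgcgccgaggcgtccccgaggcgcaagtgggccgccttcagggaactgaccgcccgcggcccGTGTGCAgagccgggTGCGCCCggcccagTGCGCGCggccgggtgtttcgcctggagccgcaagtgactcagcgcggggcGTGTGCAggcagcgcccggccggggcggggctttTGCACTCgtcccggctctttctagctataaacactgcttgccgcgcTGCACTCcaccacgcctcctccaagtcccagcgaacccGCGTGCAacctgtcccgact
All 3 measured metallothioneins with a promoter in the table held the core, with 4 matches in MT1X. It is a short pattern, found in 63.9% of promoters of measured genes and 55.2% of all promoters.

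Heat shock genes stood lower, by less. Of 18 measured members, 5 were at least 1.5-fold lower and 1 higher, against 4.47% and 4.49% of all genes. The median was -0.27, or -0.58 with equal medians. The inducible HSP70 gene HSPA1B had a level of 8.75 with bicarbonate and 9.73 in control, a difference of -0.98, and 10.03 and 10.19 on the low-density arrays, so its level with bicarbonate at high density was the lowest of the 4. CHORDC1, an HSP90 cochaperone, stood at -0.76, HSPA4L at -0.75, HSPA1A at -0.71 and HSPH1 at -0.59. HSPA1A and HSPA1B are nearly identical copies, so their values may not be independent. The 1 higher member was the small heat shock protein HSPB8 (0.82), and HSP90AB1, the constitutive HSP90, stood at 0.03.

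A window of the HSPA1B promoter is shown with the paired heat shock unit GAANNTTC in capitals (chr6:31827618-31827655, plus strand).
HSPA1B: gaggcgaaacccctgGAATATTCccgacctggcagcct
That pattern was found in 7 of 17 heat shock promoters (41.2%), against 4.5% of promoters of measured genes and 6.9% of all promoters.

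Among targets of ATF4, the transcription factor of the amino acid response, 2 genes stood out. DDIT3, the stress transcription factor CHOP, had a level of 9.84 with bicarbonate and 8.41 in control, a difference of 1.43, and was not detected at low density. CHAC1, which degrades glutathione, had 9.82 and 8.64, a difference of 1.18. Of 24 measured members, 3 were at least 1.5-fold higher, the other being STC2, 1 was lower, JDP2 (-0.92), and the median was 0.04. ATF4 stood at -0.27, asparagine synthetase ASNS at -0.51, with -0.23 on its second probe, and TRIB3 at 0.49, so the list as a whole did not move with DDIT3.

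The CHAC1 promoter is shown with its composite C/EBP-ATF response element in capitals, written TGATGNAA and lying here on the opposite strand (chr15:40953247-40953284, plus strand).
CHAC1: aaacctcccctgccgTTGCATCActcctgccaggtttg
It was 1 of 3 promoters holding that element among 20 of the list (15%), against 1.6% of promoters of measured genes and 3.7% of all promoters. The others were ATF3 (-0.38) and ASNS.

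Further stress lists differed in how many members were past 1.5-fold, with 5 of 18 in the FOXO and insulin list, 4 of 19 among amino acid transporters and fewer in the others, against 8.97% of all genes. Of 17 measured endoplasmic reticulum chaperones, the main chaperone HSPA5 alone was lower (-0.68), and the median was 0.03. NRF2 targets had 2 of 20 lower, the quinone reductase NQO1 (-0.88) and ME1, 0 higher and a median of -0.12. Of 19 amino acid transporters, SLC38A1 (0.78) and SLC6A8 (0.74) were higher, and SLC38A5 (-0.83) and SLC7A3 (-0.63, with -0.07 on its second probe) were lower. None of 18 aminoacyl-tRNA synthetases was past 1.5-fold either way. Among 18 FOXO and insulin signalling genes, CITED2 was higher (1.04), while GADD45A, the insulin receptor substrate IRS1 (-0.94), GADD45B (-0.80) and PIK3IP1 (-0.70) were lower.

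The ID genes, inhibitors of basic helix-loop-helix factors and direct targets of BMP signalling, stood higher together. ID1 had a level of 10.42 with bicarbonate and 7.97 in control, a difference of 2.44 or 5.44-fold, and 9.12 and 8.92 on the low-density bicarbonate and control arrays. Its intensity before normalization was 1109 with bicarbonate, against 391 in the high-density control. The high-density control was the lowest of the 4 arrays for ID1 and the high-density bicarbonate array the highest. ID2 had 9.65 and 8.08, and its pair of probes gave 1.57 and 1.73. ID3 had 11.54 and 10.64, a difference of 0.90. Other members of the list did not share this direction. BMP7, a ligand, stood at -0.87, the inhibitory SMAD6 at -0.67 and SMAD5, a transducer, at -0.57, and SMAD7 stood at 0.16 and the decoy receptor BAMBI at -0.07. Of 26 listed BMP genes 9 were measured, with a median of -0.07. At least 1.5-fold higher were 3 and lower 2, against 4.49% and 4.47% of all genes. The GC palindrome GGCGCC, a SMAD-binding sequence, was in 0 of the 3 ID promoter windows, against 31.5% of promoters of measured genes and 19.0% of all promoters, which says only that these letters are not within the windows.

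Contractile genes driven by SRF held some of the lowest members. ACTG2, a smooth muscle actin, had a level of 6.34 with bicarbonate and 8.14 in control, a difference of -1.81, and 8.04 and 7.95 on the low-density arrays. Its high-density bicarbonate level was just above that of the lowest detected probe, and the other 3 arrays lay close together. ACTA1, the skeletal muscle actin, had 7.10 and 8.77, a difference of -1.67, and 8.40 and 7.75 at low density. TAGLN, an actin-binding protein of smooth muscle, had 10.50 and 11.78, and its pair of probes gave -1.29 and -1.34. CALD1 (-0.78, with -0.78 on its second probe) and ACTA2 (-0.60) were also at least 1.5-fold lower. Of 26 measured members 5 were lower and 0 higher, against 4.47% and 4.49% of all genes. Below 0 stood 18, and the median was -0.08. SRF itself stood at 0.05 and beta-actin ACTB at 0.14. Actin genes share much sequence, so a probe may read more than 1 of them.

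The promoters of ACTG2 and ACTA1 are shown with the CArG box, the sequence that SRF binds, in capitals. ACTG2 holds 2 in chr2:73892883-73892959 (plus strand) and ACTA1 holds 1 in chr1:229434167-229434206 (minus strand).
ACTG2: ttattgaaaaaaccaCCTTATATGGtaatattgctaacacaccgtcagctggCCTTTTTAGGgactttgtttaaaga
ACTA1: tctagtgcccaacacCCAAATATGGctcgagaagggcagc
The CArG box was found in 8 of 23 promoters of the list (34.8%), against 1.2% of promoters of measured genes and 1.3% of all promoters. Because the list was chosen for SRF targets, a high share was likely beforehand. The others holding it included SRF and FHL2 (0.17), so the box was not limited to members that stood lower.

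In the other signalling lists members stood on both sides of 0. CCN2, a matricellular target of YAP, had a level of 11.70 with bicarbonate and 12.67 in control, and its pair of probes gave -0.96 and -1.10. Against it stood AJUBA (1.03), a LIM protein of junctions, the kinase NUAK2 (0.83, with 0.27 on its second probe) and FJX1 (0.59), so that of 15 YAP genes 3 passed 1.5-fold upward and 1 downward. For FGF and ERK targets and immediate early genes, 2 of 30 stood higher and 2 lower, and the median was -0.05. PHLDA1 had 12.43 and 11.19, a difference of 1.24, but its second probe stood at 0.01. MYC had 10.86 and 10.07, with 0.78 and 0.72 on its pair of probes. IER5 (-1.20) and IER3 (-0.85), which respond early to stress and growth signals, were the lower ones. NOTCH genes had the effectors HES1 (0.99) and HEY2 (0.90) higher, and HES6 (-0.79) and the ligand JAG1 (-0.67) lower, of 15 measured. WNT genes had the receptor FZD7 (0.93, with 0.38 on its second probe) and the secreted DKK3 (0.69) higher, 0 of 19 lower and a median of 0.13. In the NODAL and activin list only SMAD3 (-0.74), a transducer, was past 1.5-fold, of 12, with NODAL at 0.09 and its antagonist FST at 0.54.

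Core pluripotency genes differed little. POU5F1 had a level of 11.29 with bicarbonate and 11.20 in control, NANOG 9.53 and 9.50, and SOX2 12.09 and 11.82. Of 26 measured pluripotency genes 3 were at least 1.5-fold higher, the DNA methyltransferase DNMT3B (0.62, and 0.64 on its second probe), VRTN (0.62) and OTX2 (0.61), and 0 were lower. The list median was 0.18, but it stood at -0.10 with the arrays set to equal medians, so no direction is given for the list. UHRF1, which recruits maintenance methylation, stood at 0.74, and DNMT1 at -0.16.

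Neuroectoderm genes were detected for 13 of 31 list members. Of these 5 were at least 1.5-fold higher and 1 lower, against 4.49% and 4.47% of all genes. The median was 0.21, or 0.05 with equal medians. NPTX1 had a level of 9.28 with bicarbonate and 7.45 in control, a difference of 1.83, and at low density was detected on the control array alone. SOX21, a transcription factor of neural progenitors, had 8.37 and 7.16 (1.22). POU3F1, another neural transcription factor, had 10.02 and 9.04, with 0.99 and 0.95 on its pair of probes. TUBB3 (0.81), a neuronal tubulin, and FABP7 (0.65) were the others, while SOX3, a factor of early neural cells, stood at -0.72. The defining markers PAX6, SOX1, LHX2 and SIX3 were not detected on either high-density array, and the summed level of the 5 neuroectoderm markers was 1209.5 with bicarbonate and 1522 in control.

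Collagen genes of the fibroblast and stromal list stood higher, while its contractile member TAGLN stood lower. COL1A1 had a level of 9.35 with bicarbonate and 8.36 in control, a difference of 0.99, and COL6A1 (0.78), COL5A1 (0.74) and COL6A2 (0.60) stood on the same side, as did the calcium-binding S100A4 (0.64). Beside 4.49% and 4.47% of all genes, 5 of 12 measured members were at least 1.5-fold higher and 1 lower. Their median was 0.38, or 0.21 with equal medians, but PDGFRB (-0.52) and THY1 (-0.32) stood below 0. Their part in the collagen values was not tested. In the matrix and integrin list, 0 of 32 were higher and 1 was lower, SPARC (-0.79), a collagen-binding protein. The collagens named above were not members of that list, whose highest member stood at 0.57. Of 22 measured epithelial junction genes, the claudin CLDN6 was higher (0.59) and the desmosomal DSC2 lower (-0.63).

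Other lineage lists were nearly silent. Only KDR of 20 primitive streak and mesoderm genes was measured (0.64), and only FOXA3 of 17 endoderm genes (0.40). Of 20 trophoblast and amnion genes 4 were measured, with GABRP at 0.61 and TFAP2C at -1.0, where the second probe of TFAP2C stood at -0.11. Few of these genes passed the detection rule, so the lists give no level for the lineages.

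**Figure D3:**
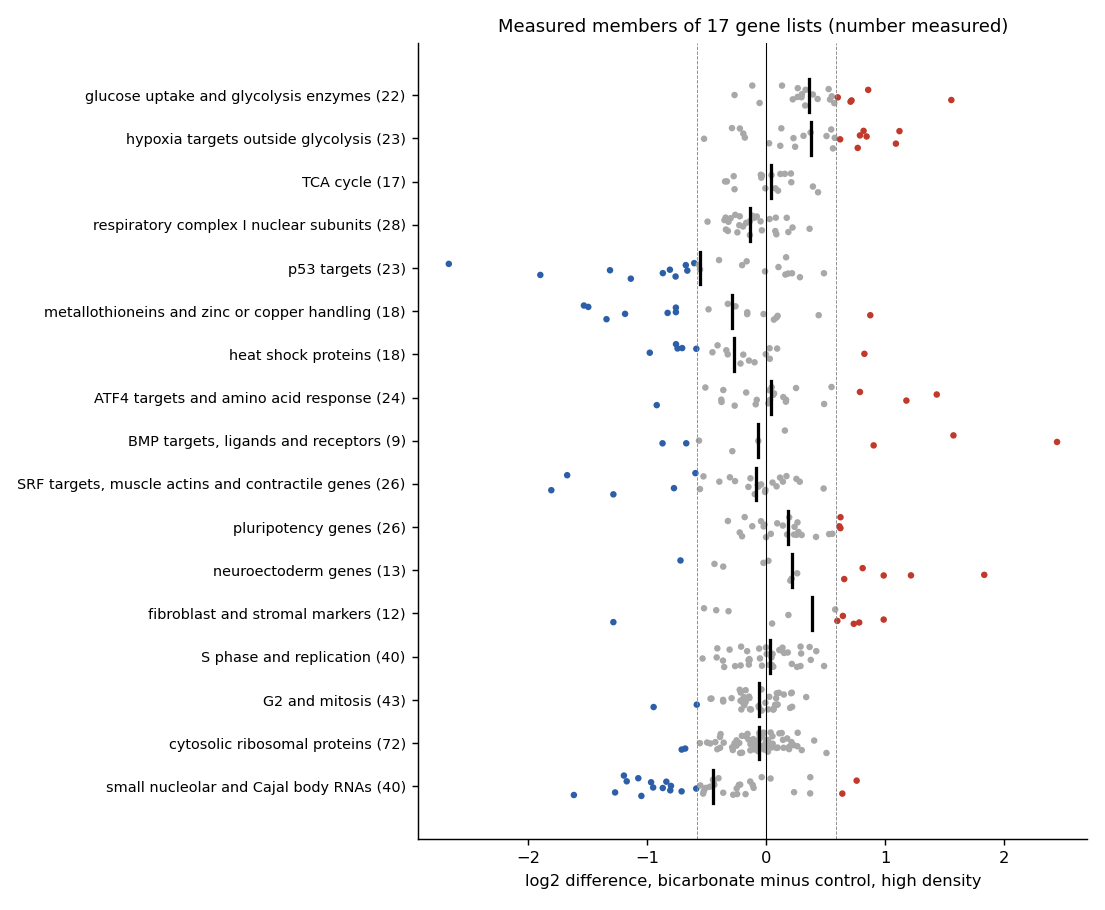
Log2 difference of high-density bicarbonate minus high-density control (horizontal axis) for each measured member (points) of 17 gene lists, with the number measured in brackets, black bars at list medians and dashed lines at 1.5-fold, red and blue points being past it. The medians of glycolysis (0.36) and other hypoxia-linked genes (0.37) lie right of 0, and those of p53 targets (-0.56) and small nucleolar RNAs (-0.45) left of it. The pluripotency median, 0.18 here, was -0.10 with arrays set to equal medians.

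Most measured small nucleolar RNAs stood lower with bicarbonate. Of 301 listed small nucleolar and Cajal body RNAs, guides for the modification of ribosomal and spliceosomal RNA, 40 were measured. At least 1.5-fold lower were 14, 6 of them at least 2-fold, and 2 were higher, against 4.47% and 4.49% of all genes. The median was -0.45, or -0.24 without background correction, against 0.07 at low density. Their median level was 7.11 with bicarbonate and 7.74 in control. This is not far above 6.31, the lowest detected level on the bicarbonate array. SNORD3D, a copy of the U3 RNA that takes part in ribosomal RNA cleavage, had a level of 7.10 with bicarbonate and 8.72 in control, a difference of -1.62. SNORA18 (-1.27), SNORA56 (-1.20) and SNORA8 (-1.17) followed. SNORA7B (0.76) and SCARNA14 (0.64) were the higher ones. Because most of these RNAs lie within introns of host genes, a probe may read the host transcript as well. How evenly RNA purification and labelling kept such short RNAs in each sample was not tested.

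RN7SK, the RNA that holds the elongation factor P-TEFb inactive, had a level of 9.08 with bicarbonate and 10.54 in control, and its pair of probes gave -1.46 and -2.22. RPPH1, the RNA of RNase P that trims transfer RNA, had 7.60 and 9.06 (-1.47), and a 5S ribosomal RNA gene, RNA5S9, had 6.98 and 8.25 (-1.27). These were the 3 of 8 other small structural RNAs at least 1.5-fold lower. RN7SL1, the RNA of the signal recognition particle, stood at 0.03 and RNY3 at -0.54. Among 5 spliceosomal RNAs RNU6-1 was lower (-0.88) and all 5 were below 0. The part of RNA purification and labelling in the values of these structural RNAs was not tested either. By annotated class, 13 microRNA genes had a median of 0.19, with 2 at least 1.5-fold higher, MIR1185-1 (1.14) and MIR300 (0.77), and 0 lower. The 36 small nucleolar RNAs had a median of -0.49 and 109 long non-coding RNAs a median of -0.08, with 4 at least 1.5-fold higher and 19 lower, while 8884 protein-coding genes had a median of 0.02, with 400 higher and 369 lower.

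Genes of ribosome assembly and protein synthesis stood near 0. UTP14A, a factor of small subunit assembly, gave 1.07 and 0.73 on its pair of probes, and with MYC it was 1 of 2 at least 1.5-fold higher among 41 ribosome biogenesis genes, with 0 lower. Cytosolic ribosomal proteins had 0 of 72 higher and 2 lower, RPL26 (-0.71) and RPL37 (-0.68), with a median of -0.06. Mitochondrial ribosomal proteins had 0 of 75 higher and 2 lower, MRPS25 (-1.22) and MRPL52 (-0.81). Of 59 translation factors, EIF5, which helps to select the start codon, was higher (0.93, with 0.39 on its second probe), and the methyltransferase EEF1AKMT3 (-0.86) and EIF2S2 (-0.60) were lower. Among 60 splicing and polyadenylation factors 4 were higher and 3 lower, led by PCF11, a factor of transcription termination (1.39), SRSF7 (0.98), SRSF3 (0.76) and, lower, CSTF3 (-0.75), whose 4 probes lay between -1.06 and -0.63.

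Cholesterol genes stood on both sides of 0. Of 24 measured genes of cholesterol synthesis and uptake 5 were past 1.5-fold, against 8.97% of all genes. IDI1 (-1.08), an early enzyme, and the feedback regulator INSIG1 (-0.80) were lower, and MYLIP (0.78), which degrades the LDL receptor, LSS (0.63) and TM7SF2 (0.59) were higher. Among 21 fatty acid genes and among 32 proteasome subunits, 0 were past 1.5-fold. In the lysosome, proton pump and autophagy list of 38, the proton pump subunit ATP6V1H was higher (0.59), and GABARAPL1 (-0.70) and ATG5 (-0.67), which act in autophagosome formation, were lower. One-carbon and nucleotide genes had 1 of 23 lower, PRPS2, which makes the ribose donor of nucleotides, at -1.08 and -1.14 on its pair of probes, and 0 higher.

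In the last lists, CRY1, a repressor of the circadian clock, was the only one of 9 clock genes past 1.5-fold (-0.81, with -0.04 on its second probe). CXCL5, a chemokine, was the only one of 17 interferon and inflammation genes past it, at 0.68 and 1.20 on its pair of probes. None of 7 iron genes was past it, with TFRC, the transferrin receptor, at -0.14. DNA methylation genes, given in part above, had 2 of 9 higher and 0 lower, against 4.49% and 4.47% of all genes.

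Agreement between probes was examined in genes with several of them. Of the 9188 genes, 1947 had at least 2 probes detected on both high-density arrays and 7241 had 1. Across those 1947 genes the differences on the brightest and second brightest probe had a Pearson correlation of 0.438 and a Spearman correlation of 0.386, and 1215 (62.4%) had the same sign. Both probes share the RNA and the arrays, and genes are not independent replicates. The difference between the probes had a standard deviation of 0.371. This carries the spread of both probes, and the like value for 1 probe, with equal spread assumed, is 0.262, against a standard deviation over all genes of 0.351.

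Larger differences agreed more often in sign, while their probes lay further apart. For 141 genes whose brightest probe was at least 1.5-fold apart, the second probe had the same sign in 120 (85.1%) and was at least 1.5-fold apart the same way in 51, with a median size in that direction of 0.42. The difference between the probes had a standard deviation of 0.568 in these genes, and of 0.815 in the 15 genes at least 2-fold apart. Of those 15 genes, 13 second probes had the same sign and 6 were at least 2-fold apart the same way. The exceptions were ZNF93, a zinc finger gene (1.07 and -0.64), and the ubiquitin protease USP48 (-1.05 and 0.14). In PLPP1, a lipid phosphatase, the second probe gave 0.35 against 1.27. Restricting to second probes with a log2 level of at least 8 left 1038 genes, with a Pearson correlation of 0.517.

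**Figure D4:**
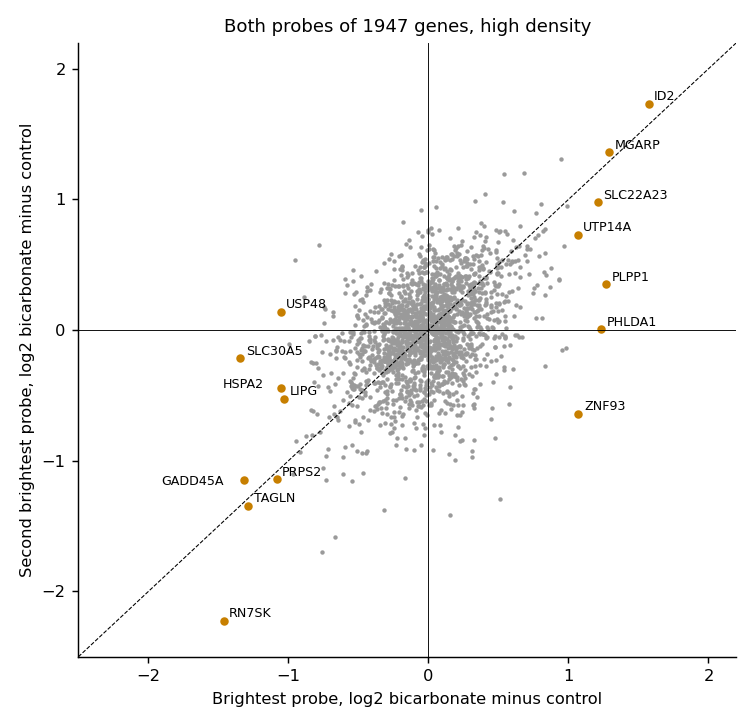
Log2 difference of high-density bicarbonate minus high-density control on the second brightest probe (vertical axis) against that on the brightest probe (horizontal axis) for 1947 genes, with a dashed line of equality. Orange points are the 15 genes at least 2-fold apart on the brightest probe. ID2, MGARP, GADD45A, PRPS2 and TAGLN lie near the line, RN7SK lies below it at -1.46 and -2.22, and PHLDA1 (0.01), SLC30A5 (-0.22) and PLPP1 (0.35) lie closer to 0 on their second probe.

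All probes of a gene pointed the same way in 1166 of the 1947 genes, and all were at least 1.5-fold apart in 23 higher and 25 lower genes. ID2 and MGARP, a mitochondrial protein (1.29 and 1.36), were at least 2-fold higher on every probe. RN7SK, TAGLN, GADD45A and PRPS2 were at least 2-fold lower on every probe. Next among the higher genes were the transporter SLC22A23 (1.21 and 0.98), POU3F1, TACC2 of the centrosome (0.95 and 1.31), ZNF274 (0.80 and 0.96), the chromatin reader ZMYND8 (0.83 and 0.77), the remodeler CHD6 (0.77 and 0.90), P4HA2, UTP14A, MYC and the calcium channel CACNA1H (0.76 and 0.70). Next among the lower genes were CCN2, ZFC3H1 (-0.92 and -0.94) of nuclear RNA decay, BIRC5, the kinase CMPK1 (-0.87 and -0.81), SAFB2 (-0.83 and -0.80), the channel subunit KCNS3 (-0.76 and -1.70), ZNF330 (-0.73 and -1.15) and the modifier UFM1 (-0.73 and -0.96).

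Several of the 15 highest and 15 lowest genes rest on 1 probe and were dim. ZNF239 had a level of 8.57 with bicarbonate and 6.90 in control, FAM124A 7.96 and 6.50, PCF11 8.10 and 6.71, GALNT18 8.10 and 6.73, and the pseudogene ZNF252P 7.91 and 6.61. PPP1R10, a partner of nuclear phosphatase, was brighter, with 9.57 and 8.21, and the cytokine IL17C had 8.02 and 6.76. The lower genes of this kind were the adaptor TICAM2, with 6.37 with bicarbonate and 7.73 in control, the antisense RNA ATP2B1-AS1, with 6.96 and 8.29, and FAR1, an enzyme of ether lipid synthesis, with 7.40 and 8.71. Of the brightest 10% of genes, the highest after PHLDA1, BNIP3 and ADM were DDIT4, the helicase DDX51 (0.80) and CARHSP1 (0.77), and the lowest were CCN2, ARGLU1 (-0.86), UQCRH (-0.71), a subunit of complex III, and YWHAB (-0.66, with -0.21 on its second probe).

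Some genes were detected on 1 high-density array alone and lie outside the 9188. A lower bound of the fold was computed for these. The level on the array that detected the gene was set against the lowest level that any detected probe reached on the other array, or against the gene's own level there if that was higher. The largest bounds with bicarbonate higher were RNY4, a Y RNA, at least 3.96-fold, ZFP36L2, which promotes decay of messenger RNA, at least 3.5-fold, SLC38A7 at least 2.50-fold, CYREN at least 2.27-fold and ZNF75A at least 2.25-fold. With bicarbonate lower they were SNORD80 at least 3.08-fold, the neural factor NHLH2 at least 2.51-fold, SNORD83B at least 2.42-fold, E2F1 at least 2.31-fold and DORIP1 at least 2.25-fold. The detection rule itself cut through similar genes. The 185 genes at the last step inside it (p-value 0.00909 on an array) had a median of 0.08 and a range of -1.81 to 1.45, and the 196 at the first step outside (0.01039) had a median of -0.04 and a range of -1.72 to 1.21.

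The same addition at low density gave other values for these genes. Of the 48 genes at least 2-fold higher with bicarbonate at high density, 45 were measured at low density, 28 of them above 0 and 17 below, with a median of 0.09. RAPGEF5 (0.61) was the 1 at least 1.5-fold higher there and FKBP10 (-1.18) the 1 at least 1.5-fold lower. Their values were seen before they were named, as for the genes named below for their low-density values. Of the 55 lower genes, 44 were measured, 31 of them above 0 and 13 below, with a median of 0.16. At low density 5 of them stood at least 1.5-fold higher, MCTS1, GLIPR1L1, MT1G, RPPH1 and ACTA1, and 3 at least 1.5-fold lower, SNORD3C, SLC5A3 and DDX17. ID1 stood at 0.20 and TXNIP at 0.45 there.

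Over all 8554 genes measured at both densities, 40.8% had the same sign, and the differences had a Pearson correlation of -0.235 across genes. The pairs share no array, but the 4 arrays were normalized together and the genes share probes and brightness. At 1.5-fold, 2.24% of genes measured at low density were higher and 1.48% lower, against 4.49% and 4.47% at high density. With 1 array per group the difference between the densities was not tested.

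**Figure D5:**
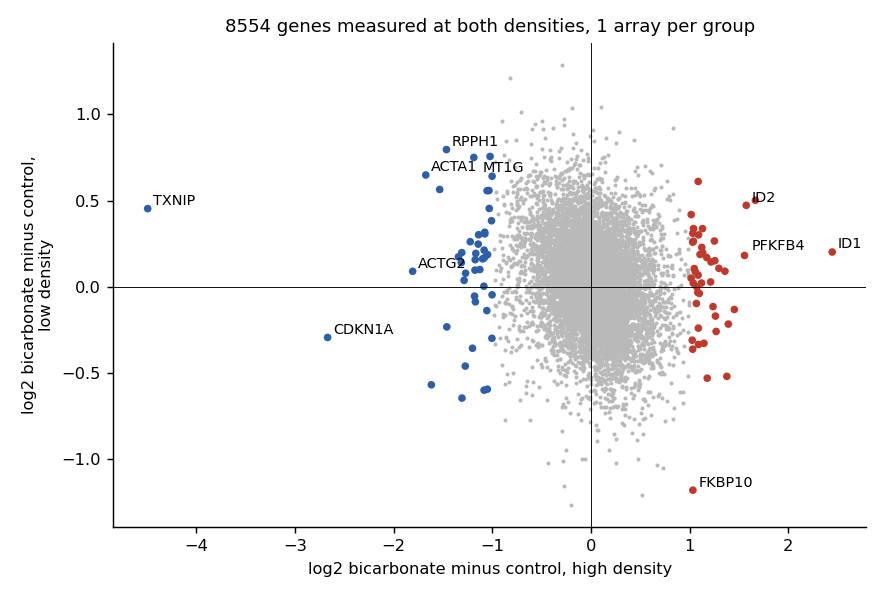
Log2 difference of bicarbonate minus control at low density (vertical axis) against that at high density (horizontal axis) for 8554 genes measured on all 4 arrays, 1 array per group. Red and blue points are at least 2-fold higher or lower at high density. TXNIP (-4.49 and 0.45), CDKN1A (-2.67 and -0.29) and ID1 (2.44 and 0.20) lie far from 0 on the horizontal axis and near it on the vertical.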

How the data were processed

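Illumina beadchips were hybridised with biotinylated cRNA made from column-purified total RNA, per the labels' protocols. The deposited intensity of each probe is on a linear scale before normalization, and the deposited detection p-value moves in steps of 0.0013. The authors also deposited log2 values, with a median near 6.02 on each array, whose processing is not given in the sources used here, nor is the scanner's background setting.

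Intensities were corrected and normalized over the 4 arrays by the neqc function (limma 3.58.1, R 4.3.3; offset of 16, negative-control level inferred from the detection p-values). Quantile normalization removes any shift common to all genes. The remaining steps ran in Python 3.11.15 (pandas 2.3.3, numpy 2.4.6, matplotlib 3.10.9, scipy 1.17.1). The platform annotation gave 1 symbol to 30098 of 47293 probes, several to 8 and none to 17187, and 30059 matched a current gene by ID, with 0 symbols changed. Promoters came from RefSeq (GRCh38.p14), and 7550 of the 9188 genes had one. Groups were taken from the sample titles. Groups of 1 array allow no test, and the procedure was tested on simulated data.

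Named were the 15 highest and 15 lowest genes at least 2-fold apart, the 5 largest bounds per direction, the 12 highest and 12 lowest genes by the least difference over several probes, 4 members from each of 54 gene lists by absolute difference and 8 per direction in the brightest 10%. Other list members named were chosen after their values were seen. Members and lists were chosen with earlier results of these data known, so they are no independent support. Some lists share members. The alternatives were 8 settings of background, scaling, detection, brightness, offset and probe choice.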

Additional observations from a re-analysis of the deposited data

Results flagged for a closer look

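Of 8554 genes measured at both densities, 40.8% had the same sign at both. At least 1.5-fold apart at both were 59 genes, 14 on the same side of 0 and 45 on opposite sides. Of these 45, 16 were higher at high density and 29 lower. Those in a gene list, named by the rule or at least 2-fold apart at high density are given here with the log2 difference of bicarbonate minus control at high density, then at low density. With 1 array per group the difference between the densities was not tested.

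Higher at high density were FKBP10, a collagen chaperone (1.03, then -1.18), the initiation factor EIF5 (0.93, then -0.61), the histone demethylase KDM4B (0.77, then -0.67) and the chemokine CXCL5 (0.68, then -0.63). Lower at high density were UQCRH of complex III (-0.71, then 0.63), the metallothioneins MT1F (-0.76, then 0.85) and MT1G (-1.19, then 0.75), the clock repressor CRY1 (-0.81, then 0.61), the histone H2BC12 (-0.82, then 1.21), MCTS1 (-1.0, then 0.64), GLIPR1L1 (-1.02, then 0.76), the RNase P RNA RPPH1 (-1.47, then 0.80) and the muscle actin ACTA1 (-1.67, then 0.65). Second probes at high density moved the same way by less for EIF5 (0.39) and UQCRH (-0.46), by more for CXCL5 (1.20), and stood near 0 for CRY1 (-0.04).

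Probes without a gene symbol entered no count of genes. Of 2662 such probes measured on both high-density arrays, 3 were at least 2-fold higher with bicarbonate and 25 lower. Among the 9188 genes the shares were 0.522% higher and 0.599% lower. The lowest probes were ILMN_1671651, with a log2 level of 6.34 with bicarbonate and 8.11 in control (-1.77), ILMN_1842582 (-1.55) and ILMN_1904785 (-1.45). The higher ones were ILMN_2364022, with a log2 level of 10.63 with bicarbonate and 8.77 in control (difference 1.86), ILMN_3267451, with 10.56 and 9.37 (1.19), and ILMN_3230260, with 7.58 and 6.52 (1.06).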

How the results depend on the processing

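No paired analysis was possible because each group holds 1 array. The counts of genes depended on the processing. The 824 genes at least 1.5-fold apart kept their sign in all 6120 values under the alternatives that measured them. These genes were chosen by size on the same arrays, and the alternatives reuse the same intensities. A change of sign was thus unlikely from the start, and the kept signs are no independent support. Genes at least 2-fold higher numbered 48 as reported, 14 without background correction, 31 with the authors' deposited log2 values, 25 with arrays set to equal medians, 77 at a detection p-value under 0.05, 22 at a log2 intensity of at least 8 and 28 with an offset of 50. Genes at least 2-fold lower numbered 55 as reported, and 14, 35, 85, 17 and 34 without background correction, with the deposited log2 values, with equal medians, at a log2 intensity of at least 8 and with an offset of 50. At 1.5-fold, 413 genes were higher as reported, and 128 without background correction, 225 with equal medians, 173 at a log2 intensity of at least 8 and 266 with an offset of 50. Of lower genes there were 411, and 150, 804 and 179 under the first 3 of these. Normalizing the high-density pair alone, or averaging the detected probes, left these counts within 1.5 times. The agreement between probes of a gene was a Pearson correlation of 0.438, and of 0.374 at a detection p-value under 0.05. The lack of background correction and the larger offset both compress weak signals, and the part of this in the loss of calls was not tested. The cause of the lower split with equal medians was not tested.

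The 71 values of the 9 lists with a median of at least 0.25 in size kept their sign, which that size made likely, but sizes moved. With equal medians 42 of 52 list medians moved by at least 0.1, and 48 of 236 named genes moved by more than the spread of a probe (0.262), as did 49 without background correction and 20 on the mean of all detected probes. TXNIP ranged from -4.57 to -3.37, CDKN1A from -2.93 to -2.5 and ID1 from 2.01 to 2.44 over the settings. Signal over background limits what can be said of dim genes.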

Other observations

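The naming rule left out 23 genes at least 2-fold higher and 29 at least 2-fold lower with bicarbonate at high density, which are given here by what they do, chosen as the rest of those calls. Each rests on 1 array a side and was not tested. Among the higher were genes of the cell surface and matrix: HAS3, which makes hyaluronan (1.17), P3H2, a collagen prolyl hydroxylase (1.08), FKBP10, a collagen chaperone (1.03), the guidance receptor UNC5A (1.13), the semaphorin SEMA4A (1.12), the endothelin receptor EDNRB (1.09), the bombesin receptor GRPR (1.04) and SH3PXD2A, a scaffold of invadopodia (1.03). ARC, an immediate early gene of neurons (1.10), and RAPGEF5, an exchange factor for Rap GTPases (1.09), stood beside them. Zinc finger and related nuclear genes were ZNF613 (1.25), ZNF93 (1.07, with -0.64 on its second probe), ZBTB3 (1.05), ZBTB24 (1.03), ZC3H4 (1.01) and TIGD5 (1.01). The share of such genes among all measured genes was not examined. The others were the microRNA gene MIR1185-1 (1.14), CFAP95 (1.13), the sugar phosphate transporter SLC37A1 (1.09), RAB40B (1.08), ARLN (1.06), the plasma prekallikrein gene KLKB1 (1.04) and TRAPPC12 (1.03).

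Among the lower were further genes of stress and growth control: RHOB, a small GTPase that is induced by stress (-1.18), ZC3H12A, an RNase that degrades inflammatory messages (-1.09), SERTAD1, a partner of CDK4 (-1.0), BORA, an activator of mitotic kinases (-1.01), and SLC5A3, the myo-inositol transporter that is induced by high osmolarity (-1.08). HSPA2, an HSP70 family gene (-1.06), USP48 (-1.05) and the lipase LIPG (-1.03) have second probes at -0.44, 0.14 and -0.53. RNA genes and RNA-binding proteins were the helicase DDX17 (-1.31), FUBP1 (-1.0), MCTS1 (-1.0), SNORA61 (-1.08), SNORD3C (-1.05) and the long non-coding SNHG9 (-1.10), IPW (-1.05) and ZEB1-AS1 (-1.02). At the cell surface stood PKD1L2 (-1.26), the purine receptor P2RY1 (-1.14), OSCAR (-1.14) and the ephrin EFNA1 (-1.02). The others were MTURN (-1.18), ANXA3 (-1.17), FGF13 (-1.17), SDHAP2 (-1.13), the actin regulator CAP2 (-1.08), ACSM3 (-1.08), MAGEE1 (-1.03), RAB18 (-1.02) and GLIPR1L1 (-1.02).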
